A study of Rattus norvegicus with 6 samples.

Results

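The receptors through which retinal neurons detect glutamate, GABA and glycine are built from subunits, and the levels of the messenger RNAs for these subunits are described here in the diabetic and the control rat retina. The genes were chosen by symbol and not by any measured value. They are the rows of the gene table annotated as protein-coding whose symbols are those of the AMPA, kainate, delta and NMDA receptors (Gria, Grik, Grid, Grin), the metabotropic glutamate receptors (Grm, without Grm6), the GABA-A, rho and GABA-B receptors (Gabr, Gabbr) and the glycine receptors (Glra, Glrb). This gave 51 of the 34170 genes in the table. Of these, 50 encode receptor subunits in 9 classes, and the remaining one encodes delphilin, a scaffold protein that binds delta receptors. The symbol patterns matched 53 rows. Grm6 was set aside by the choice of genes, and Grm4 was left out because its row is annotated as a processed transcript.

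The study profiled poly-A RNA of the retina from 6 male rats of the outbred Sprague-Dawley stock, with 3 libraries per group. The diabetic group had received streptozotocin, a toxin of the pancreatic beta cells, which make insulin, at 60 mg/kg after 12 h without food, by injection into the abdomen on 5 days in a row. A fasting blood glucose above 16.7 mmol/L, measured 1 week after the final dose, defined these rats as diabetic. Control rats were injected on the same schedule with the citrate buffer alone, and the labels call their genotype WT and that of the treated rats Diabetic. No gene was altered in either group, so far as the labels tell, and both groups started at about 100 g. The sources used here give neither the age of the rats nor the time from the injections to the collection of the retinas. Chemical loss of beta cells models insulin deficiency, and effects of the toxin itself and of high glucose cannot be told apart in this design.

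Glutamate carries the signal from photoreceptors to bipolar cells and from bipolar cells to amacrine and ganglion cells, and horizontal and amacrine cells shape that signal with GABA and glycine. AMPA, kainate and NMDA receptors are glutamate-gated cation channels of several subunits, and metabotropic receptors act through G proteins. GABA-A and glycine receptors are chloride channels assembled from several subunits, and the rho subunits form GABA receptors that are typical of bipolar cell terminals. ON bipolar cells detect glutamate with mGluR6, the product of Grm6, and OFF bipolar cells with AMPA and kainate receptors.

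Expression was given as FPKM, fragments relative to the length of the gene and the size of the library, a unit that permits comparison between genes. The fragments behind the values could be rebuilt and numbered between 12417686 and 19115426 per library, so a gene of 1 kb with 3 fragments had 0.158 to 0.248 FPKM. The tissue label was checked against markers. All 7 rod, 9 bipolar, 10 amacrine and 10 ganglion cell markers were detected. Control 3 stood apart in lens genes, whose summed level was 314.4 FPKM there and 8.19 to 40.3 FPKM in the other 5 libraries. Control 2 and diabetic 1 stood apart in corneal genes, with sums of 8.19 and 8.49 FPKM against 0.308 to 2.22 FPKM elsewhere. No sequencing batch is named in the labels, and each library comes from a rat with its own recorded weight.

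Among the 51 genes, 49 were above 0 in every library, 36 had a mean of at least 1 FPKM and 12 a mean of at least 10 FPKM. Gabbr1 averaged 37.1 FPKM over the 6 libraries, Gria2 29.96 FPKM, Gabrr1 27.9 FPKM, Gabrr2 24.9 FPKM and Grik5 21.4 FPKM. Every library had more Gabbr1 than any had Gria2, while the ranges of Gria2 and Gabrr1 overlapped, so the order of that pair is not beyond the spread. Thus subunits of GABA-B, AMPA, rho and kainate receptors were all among the abundant messengers of the group. At the other end, Gabra6, known from cerebellar granule cells, was listed above 0 in 1 library.

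**Figure D1:**
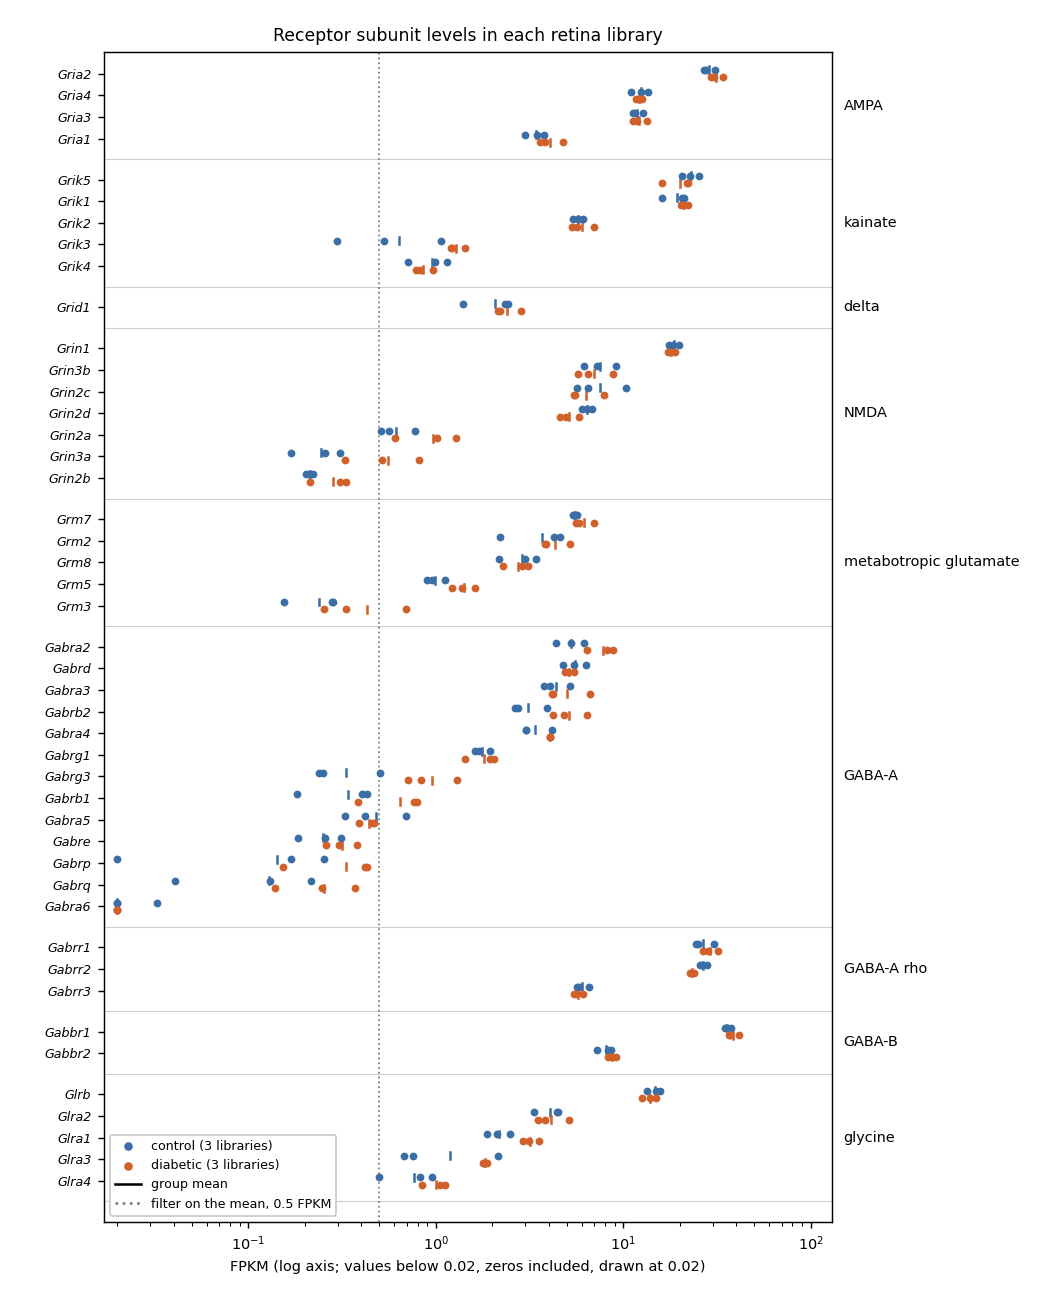
Level of 45 of the 50 subunit genes in each of the 6 libraries, in FPKM on a log axis, grouped by receptor class. Points are single libraries coloured by group, and the 2 groups overlap for most genes across a range from below 1 FPKM to the 41.4 FPKM of Gabbr1 in diabetic 2.

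None of the receptor genes passed the test between the diabetic and the control retinas. Genes that averaged at least 0.5 FPKM were compared on log2(FPKM + 0.5) with limma, and fold changes on this scale understate those of low genes. This left 41 of the 51 genes. At an adjusted p of at most 0.05, 0 of 41 receptor genes and 0 of all 16363 genes tested were called, a share of 0.0%. The smallest limma adjusted p among all genes was 0.127. A test on the rebuilt fragments with limma's voom called 2 genes and none of the receptors. Values below are therefore differences that did not pass, and counts at an unadjusted p are set beside the share of all genes.

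At an unadjusted limma p below 0.05, 6 of 41 receptor genes (14.6%) were higher in the diabetic libraries, beside 9.15% of all genes tested. They include Gabra2, Gabrb2, Gabrg3, Glra1 and Grik3. Gabrg3 reached the level for the test only through its diabetic values, so it had to differ, and apart from it the count is 5 of 40 (12.5%). In the other direction, 2 of 41 (4.88%) were lower, Gabrr2 and Grin2d, beside 10.7% of all genes. In all, 3255 genes (19.9%) had an unadjusted p below 0.05. These shares depend on the scaling. In TPM, which rescales each library to 1 total, 8 of 41 receptor genes (19.5%) were higher, beside 18.4% of all genes, and 0 were lower, beside 4.23%. All 3 diabetic libraries lay above all 3 control libraries for 8 receptor genes (19.5%, beside 12.7% of all genes), Grm5 among them, and for 7 of 40 (17.5%) apart from Gabrg3. They lay below for the same 2 (4.88%, beside 13.6%). In either direction the groups did not overlap for 10 of 41 (24.4%), beside 26.2% of all genes, a share near that of all genes.

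The log2 difference was above 0 for 28 of 41 receptor genes (68.3%), beside 50.1% of all genes, and its median was 0.13, beside 0.00034 for all genes. Against the control mean, the median receptor gene was at -0.04, 0.00089 and -0.01 in the control libraries and at 0.15, 0.11 and 0.05 in the diabetic libraries. The diabetic medians all lay above the control medians, the lowest of them in diabetic 3. The median was 0.12 apart from Gabrg3. The size of this shift depended on single libraries and on scaling. It was 0.08 without control 3 and 0.08 without diabetic 2. After removal of a gene-length trend in each library it was 0.04, with 21 of 41 genes above 0. In TPM the receptor median was 0.26 while the median of all genes was 0.13. Without diabetic 2, 2 of 41 receptor genes (4.88%) were higher at an unadjusted limma p below 0.05, beside 5.67% of all genes. Gabrb2 was among the 2. The 2 lower genes became 0 without control 2, without control 3, without diabetic 1, without diabetic 2 and in TPM, and 1 without diabetic 3. In these settings 4.23 to 13% of all genes were lower. In bulk tissue, fewer cells of a type and less RNA per cell cannot be told apart. The 7 rod markers summed to 34468 to 38530 FPKM in the control and 28521 to 32971 FPKM in the diabetic libraries, with a median log2 difference of -0.20. The 10 amacrine markers summed to 504.1 to 622.6 FPKM and 506.9 to 613.6 FPKM, with a median of 0.14. The part of either in the receptor values was not tested. Most single differences also depended on single libraries. For 28 of the 36 tested genes reported here, leaving out 1 library moved the log2 difference by more than 1.5 times or turned its sign. The other 8 were Gabra2, Gabrb2, Gabrg3, Gabrr2, Glra1, Grik3, Grin2d and Grm5. The same 8 are the tested genes reported here whose groups did not overlap. The rule favours such genes and rests on the same values, so it is no separate support for them. Gabrg3 also had to differ.

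**Figure D2:**
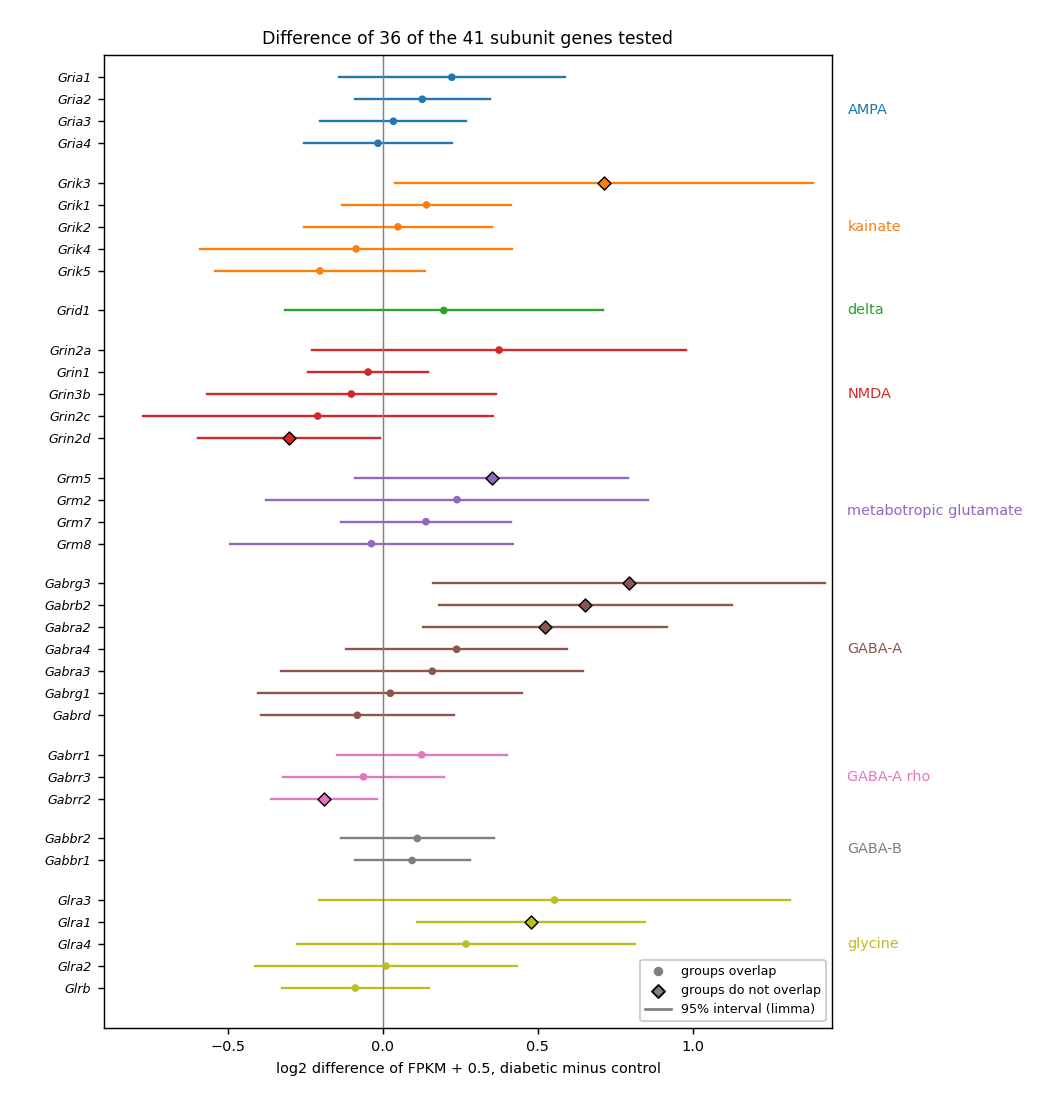
Log2 difference in FPKM, diabetic minus control, with its 95% confidence interval from limma, for 36 of the 41 genes tested, ordered by receptor class. Diamonds mark genes whose 3 diabetic libraries all lie on one side of the 3 control libraries, and the values run from -0.30 for Grin2d to 0.80 for Gabrg3. Gabrg3 entered only through its diabetic values, so its interval and diamond are a description and no test.

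GABA-A receptor genes made up 4 of the 6 receptor genes that were higher at an unadjusted limma p below 0.05. This is 4 of the 10 GABA-A genes tested (40%), beside 9.15% of all genes tested. Gabrg3, which had to differ, is among the 4, so it raises the 40%, which is a description only. In TPM, 18.4% of all genes were higher at an unadjusted limma p below 0.05, and the GABA-A count was not taken there. Of 10 tested, 9 had a log2 difference above 0, beside 50.1% of all genes, and the median was 0.20 (0.35 in TPM and 0.17 after removal of the length trend). Apart from Gabrg3, 8 of 9 were above 0 and the median was 0.17. The summed level of all 16 genes was 124 ± 11.2 FPKM (SD, n = 3) in the control and 140.0 ± 9.30 FPKM (SD, n = 3) in the diabetic retinas. The sums overlapped, with control 1 at 131.03 FPKM and diabetic 3 at 130.62 FPKM. The values of a gene are given for libraries 1, 2 and 3 of each group in that order here and below.

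Beta subunits form the GABA binding site together with alpha subunits. Gabrb2, a beta subunit, was at 2.74, 3.90 and 2.64 FPKM in the control libraries and 6.44, 4.81 and 4.24 FPKM in the diabetic libraries. The highest control value, 3.90 FPKM, lay below the lowest diabetic value, 4.24 FPKM. Its mean was 1.67 times the control mean (log2 difference 0.65, SE 0.20, unadjusted p = 0.0137, limma adjusted p = 0.169). Under the other scalings and filters, and without each library in turn, the unadjusted limma p of Gabrb2 stayed below 0.05 and its adjusted p above it. Gabrb1, another beta gene, was below the level required for the test at 0.183, 0.429 and 0.405 FPKM against 0.791, 0.766 and 0.385 FPKM, with overlap.

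Gabra2, the alpha2 subunit, was at 4.37, 6.19 and 5.28 FPKM in the control libraries and 8.81, 8.19 and 6.42 FPKM in the diabetic libraries. The groups did not overlap, although diabetic 3 at 6.42 FPKM was close to control 2 at 6.19 FPKM, and the mean was 1.48 times the control mean (log2 difference 0.52, SE 0.17, unadjusted p = 0.0161, limma adjusted p = 0.176). Without diabetic 1 the unadjusted p was 0.0579 and without diabetic 2 it was 0.0529. Gabrg3, a gamma subunit of low level named here after its values were seen, was at 0.252, 0.507 and 0.239 FPKM in the control libraries and 0.837, 1.303 and 0.714 FPKM in the diabetic libraries. This rests on 5 to 10 fragments in the control and 22 to 36 in the diabetic libraries. Its control mean lay under 0.5 FPKM, so it entered the test only through its diabetic values, and its log2 difference of 0.80 is given as a description with no test. Gabra3, Gabra4, Gabrd and Gabrg1 had log2 differences of 0.16, 0.24, -0.08 and 0.02, all with overlap. Gabrd encodes the delta subunit of extrasynaptic receptors, and its difference turned to 0.05 in TPM and to 0.01 without control 1. Gabra3 turned to -0.04 without diabetic 1. Gabrg1, near 0, turned to -0.04 with quantile normalization and ran from -0.05 to 0.15 without each library in turn. Gabra5, Gabra6, Gabre, Gabrp and Gabrq were not tested, with group means up to 0.480 FPKM.

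Most GABA-A genes stand in clusters that arose by duplication, and neighbours could be compared. In the chromosome 14 cluster Gabra4, Gabra2 (chr14:39661968-39798302, plus strand, in the coordinates of the deposited table, whose build the sources used here do not name) and Gabrg1 had log2 differences of 0.24, 0.52 and 0.02. Gabrb1, too low to be tested, lies in the same cluster, and its diabetic mean was 1.91 times the control mean, beside 1.48 times for Gabra2. Differences between neighbours were not tested. Gabrb2 lies in the chromosome 10 cluster (chr10:27973681-28187565, plus strand). Gabrg3 lies on chromosome 1 (chr1:112158519-112811936, minus strand) beside Gabra5. The row of Luzp2, a leucine zipper gene, overlaps Gabrg3 and Gabra5 on the opposite strand, and without strand in the counting such reads cannot be told apart. Luzp2 was at 6.01, 4.32 and 4.33 FPKM in the control and 5.14, 4.93 and 3.87 FPKM in the diabetic libraries, a log2 difference of -0.06.

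The rho subunits form slowly acting GABA receptors in bipolar cells, and Gabrr1 and Gabrr2 were the abundant genes of the class. Gabrr1 was at 25.00, 24.4 and 30.6 FPKM in the control libraries and 28.5, 32.2 and 26.5 FPKM in the diabetic libraries, and the groups overlapped (log2 difference 0.13, SE 0.12, unadjusted p = 0.317, limma adjusted p = 0.587). Its log2 difference ran from 0.05 to 0.23 without each library in turn. Gabrr2 was at 25.6, 26.2 and 28.0 FPKM in the control libraries and 23.8, 22.8 and 23.2 FPKM in the diabetic libraries. All diabetic values of Gabrr2 lay below all control values, and the mean was 0.874 times the control mean (log2 difference -0.19, SE 0.07, unadjusted p = 0.0345, limma adjusted p = 0.218). The unadjusted p of Gabrr2 was 0.537 in TPM, with a log2 difference of -0.06, and 0.120 with voom. It was also above 0.05 without each library but control 1, up to 0.0982 without diabetic 2. Gabrr3 was at 5.83, 5.64 and 6.58 FPKM in the control libraries and 6.10, 5.46 and 5.66 FPKM in the diabetic libraries, with overlap and a log2 difference of -0.06 that turned to 0.07 in TPM. The class sum was 59.3 ± 5.05 FPKM (SD, n = 3) in the control and 58.1 ± 2.54 FPKM (SD, n = 3) in the diabetic retinas.

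Because both genes are measured in the same library, the share of each in the class sum does not depend on library scaling. Gabrr1 made up 44.3, 43.4 and 47.0% in the control libraries and 48.8, 53.3 and 47.9% in the diabetic libraries. Gabrr2 made up 45.4, 46.6 and 42.9% in the control libraries and 40.7, 37.7 and 41.9% in the diabetic libraries. The groups did not overlap in either share, and control 3 lay closest to the diabetic libraries in both. Since the 2 genes make up most of the sum, a higher share of one goes with a lower share of the other by construction. The Gabrr1 share differed by 5.12 percentage points (3.47 to 6.18 without each library in turn) and the Gabrr2 share by -4.86 (-5.88 to -3.64). The rows are of unequal length, 4187 nt for Gabrr1 and 2830 nt for Gabrr2, and long genes were higher in the diabetic libraries across the table. After removal of the length trend the log2 differences were 0.04 for Gabrr1 and -0.21 for Gabrr2.

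Gabrr2 (chr5:48303366-48341642) and Gabrr1 (chr5:48374096-48411170) are neighbours on the plus strand, 32.5 kb apart in the table's coordinates. Their upstream sequences are shown because the pair lies in 1 locus and makes up most of the class. The 250 bases before each start come from RefSeq on GRCr8, plus strand, at chr5:52320225-52320474 for Gabrr1 and chr5:52248228-52248477 for Gabrr2. Capitals mark matches, on either strand, to any of 5 short motifs, and no 2 matches overlap here. TAATCC is the core bound by CRX, a homeodomain factor of photoreceptors and bipolar cells. TATAAA is a TATA box, and CCAAT is the box bound by NF-Y. GGGCGG is a GC box bound by Sp factors, and TGACGTCA is the CRE bound by CREB.
Gabrr1: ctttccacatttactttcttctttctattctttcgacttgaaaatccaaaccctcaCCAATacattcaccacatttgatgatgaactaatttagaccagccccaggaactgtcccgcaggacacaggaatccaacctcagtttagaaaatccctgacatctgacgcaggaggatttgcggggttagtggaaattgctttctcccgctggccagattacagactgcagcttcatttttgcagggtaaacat
Gabrr2: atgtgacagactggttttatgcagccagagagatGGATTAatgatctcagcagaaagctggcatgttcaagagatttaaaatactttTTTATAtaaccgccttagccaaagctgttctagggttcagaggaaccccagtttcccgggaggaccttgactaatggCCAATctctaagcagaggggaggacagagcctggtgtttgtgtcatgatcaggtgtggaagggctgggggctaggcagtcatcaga
The Gabrr1 window held 1 match, CCAAT with its first base 194 bases before the start. The Gabrr2 window held 3, TAATCC at 216, TATAAA at 163 and CCAAT at 86 bases before the start. Of 33469 RefSeq promoters of this length, 6.34% held TAATCC, 12.9% TATAAA, 34% CCAAT, 30.5% GGGCGG and 1.59% TGACGTCA. Among the 34 receptor genes with an entry, the counts were 3, 3, 14, 15 and 0. A gene was counted if any of its promoters held the motif, so these counts per gene are not in the unit of the percentages per promoter. A match describes letters and is not evidence of binding.

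Glycine receptors, used by many amacrine cells, combine alpha subunits with the beta subunit that holds them at gephyrin scaffolds. Of the 5 genes, 4 had a log2 difference above 0 (beside 50.1% of all genes), 1 was higher at an unadjusted p below 0.05 (beside 9.15%), and the median was 0.27. That median was 0.11 without control 3, 0.44 in TPM and 0.45 with voom. Glra1, the alpha1 subunit, was at 2.13, 2.49 and 1.87 FPKM in the control libraries and 3.14, 3.56 and 2.91 FPKM in the diabetic libraries. Every diabetic library lay above every control library, and the mean was 1.48 times the control mean (log2 difference 0.48, SE 0.16, unadjusted p = 0.0177, limma adjusted p = 0.178). The unadjusted p was 0.0537 without control 3 and 0.0666 without diabetic 2. Glrb was at 15.0, 15.8 and 13.4 FPKM in the control libraries and 14.9, 13.9 and 12.7 FPKM in the diabetic libraries, with overlap and a log2 difference of -0.09 (95% interval -0.33 to 0.15) that turned to 0.05 in TPM.

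The shares of Glrb and Glra1 in the class sum did not overlap between the groups, while those of Glra2, Glra3 and Glra4 did. A lower share of Glrb goes with a higher summed share of the alpha genes by construction. Glrb made up 64.4, 65.0 and 63.1% in the control libraries and 57.2, 58.1 and 57.6% in the diabetic libraries of the summed glycine receptor FPKM. Glra1 made up 9.15, 10.3 and 8.78% in the control libraries and 12.0, 14.9 and 13.2% in the diabetic libraries. The difference was -6.54 percentage points for Glrb (-7.09 to -6.12 without each library in turn) and 3.99 for Glra1 (3.24 to 4.66). The row of Glrb is the longer, 3712 nt against 2125 nt for Glra1, and after removal of the length trend the log2 differences were -0.15 and 0.50. Glra3, found at amacrine synapses, was at 0.759, 0.681 and 2.16 FPKM in the control libraries and 1.79, 1.80 and 1.87 FPKM in the diabetic libraries. Control 3 lay above every diabetic library while control 1 and 2 lay far below, so the groups overlapped (log2 difference 0.55, SE 0.32, unadjusted p = 0.129, limma adjusted p = 0.381). The difference was 0.93 without control 3 (unadjusted p = 0.00286, limma adjusted p = 0.0616) and 0.34 without control 2. Glra2 and Glra4 had log2 differences of 0.01 and 0.27, with overlap. Glra4 had 0.11 without control 3. Glra2 turned to -0.03 after removal of the length trend, to -0.07 with quantile normalization, to -0.11 without control 3 and to -0.14 without diabetic 1. The class sum was 22.9 ± 1.49 FPKM (SD, n = 3) in the control and 24.0 ± 2.04 FPKM (SD, n = 3) in the diabetic retinas.

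**Figure D3:**
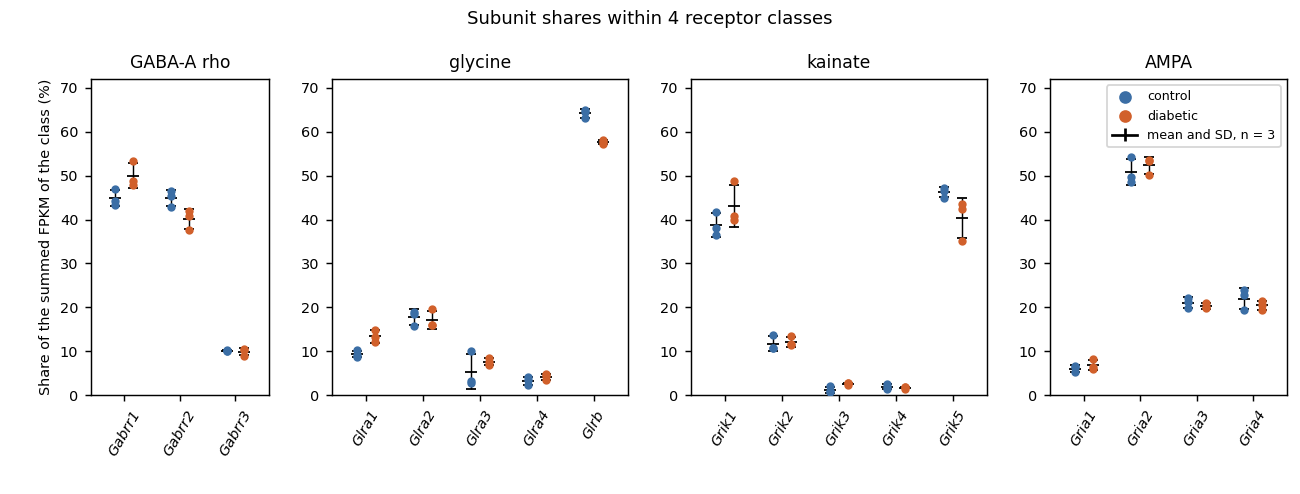
Share of each subunit gene in the summed FPKM of its class, in percent, for the rho, glycine, kainate and AMPA classes, with 1 point per library and the groups side by side. Glrb lies at 63.1 to 65.0% in the control and 57.2 to 58.1% in the diabetic libraries, while Gabrr1 lies at 43.4 to 47.0% and 47.9 to 53.3%.

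Over the 9 classes, 10 of 50 subunit shares did not overlap between the groups, 7 higher and 3 lower in the diabetic libraries. No share of all genes exists for this count, and the shares of a class depend on each other. Those higher were Gabrr1, Glra1, Grik3, Gabra2, Gabrb2, Gabrg3 and Grin3a, and those lower were Gabrr2, Glrb and Grik5.

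GABA-B receptors, G protein-coupled and made of an obligate pair, had values that overlapped between the groups. Gabbr1, the ligand-binding subunit, was at 37.5, 34.9 and 35.2 FPKM in the control libraries and 36.5, 41.4 and 37.3 FPKM in the diabetic libraries. Gabbr2, the subunit that couples to G proteins, was at 8.31, 8.65 and 7.27 FPKM in the control libraries and 9.19, 8.71 and 8.34 FPKM in the diabetic libraries. The 2 genes had log2 differences of 0.09 (95% interval -0.09 to 0.28) and 0.11 (95% interval -0.13 to 0.36). After removal of the length trend both turned, to -0.07 and -0.02. The row of Gabbr1 overlaps another gene on the opposite strand.

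Ionotropic glutamate receptor genes showed no common direction. Of 16 tested, 9 had a log2 difference above 0 (beside 50.1% of all genes), 1 had an unadjusted p below 0.05 as higher (beside 9.15%) and 1 as lower (beside 10.7%), and the median was 0.04. Among AMPA receptors, which carry fast transmission, Gria2 was the most abundant and made up 50.8% of the class sum in the control retinas. Its GluA2 subunit makes the channel impermeable to calcium when its RNA is edited. Gria2 was at 27.8, 27.0 and 31.0 FPKM in the control libraries and 29.4, 34.2 and 30.3 FPKM in the diabetic libraries. Gria1 was at 2.98, 3.47 and 3.77 FPKM in the control libraries and 4.80, 3.81 and 3.61 FPKM in the diabetic libraries. Diabetic 1 was the highest for Gria1, and the other 2 diabetic libraries lay within the control range or next to it. The log2 differences of Gria1, Gria2, Gria3 and Gria4 were 0.22, 0.13, 0.03 and -0.02, with overlap in each and a largest SE of 0.15. Gria3 was at 12.7, 11.5 and 11.3 FPKM against 11.8, 13.4 and 11.3 FPKM, and Gria4 at 13.6, 12.4 and 11.1 FPKM against 12.6, 12.3 and 11.7 FPKM. The class median of 0.08 became -0.06 after removal of the length trend, which turned Gria2 to -0.04 and Gria3 to -0.08, and 0.22 in TPM, which turned Gria4 to 0.12. The rows of Gria2, Gria3 and Gria4 each overlap a small RNA gene on the same strand.

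Kainate receptors serve OFF bipolar cells, in which GluK1, the product of Grik1, responds to photoreceptor glutamate. Grik1 was at 21.1, 16.1 and 20.5 FPKM in the control libraries and 22.2, 20.7 and 20.5 FPKM in the diabetic libraries, with overlap (log2 difference 0.14, SE 0.12). Without control 2 the log2 difference was 0.02. Grik5, a high-affinity subunit that needs a partner subunit to form channels, was at 22.7, 20.6 and 25.4 FPKM in the control libraries and 16.1, 22.1 and 21.8 FPKM in the diabetic libraries. Diabetic 1 was the lowest library for Grik5, and the other diabetic values lay within the control range (log2 difference -0.20, SE 0.14, unadjusted p = 0.200, limma adjusted p = 0.470). Without diabetic 1 the log2 difference was -0.06. Its share of the kainate sum was 45.0, 46.6 and 47.3% in the control libraries and 35.1, 42.4 and 43.5% in the diabetic libraries, without overlap. Grik3 was at 0.533, 0.296 and 1.07 FPKM in the control libraries and 1.23, 1.43 and 1.21 FPKM in the diabetic libraries. All diabetic values lay above the control values, which spread widely from control 2 to control 3 (log2 difference 0.71, SE 0.29, unadjusted p = 0.0410, limma adjusted p = 0.234). Its log2 difference depended on the pseudocount, at 1.06 with 0.1 and 0.51 with 1, and the unadjusted p was above 0.05 without each library but control 3, up to 0.118 without control 2. Grik2 and Grik4 had 0.05 and -0.09. Grik2 turned to -0.06 after removal of the length trend, to -0.01 with quantile normalization and to -0.06 without diabetic 2. Grik4 turned to 0.0055 in TPM and to 0.01 without control 2. The class median was 0.05, and it turned to -0.06 after removal of the length trend, to -0.01 with quantile normalization and to -0.05 without diabetic 2. The class sum was 49.5 ± 4.84 FPKM (SD, n = 3) in the control and 49.3 ± 3.24 FPKM (SD, n = 3) in the diabetic retinas.

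NMDA receptors pair the obligate GluN1, from Grin1, with GluN2 or GluN3 subunits, and ganglion cells are a main site of them. Of 5 tested, 4 had a log2 difference below 0, where 50.1% of all genes were above 0, and 1 of these had an unadjusted p below 0.05 (beside 10.7% of all genes as lower). The median was -0.10, and it turned to 0.03 in TPM and to 0.03 without control 3. Grin1 was at 19.8, 17.7 and 18.5 FPKM in the control libraries and 17.7, 18.9 and 17.4 FPKM in the diabetic libraries, with overlap and a log2 difference of -0.05 (95% interval -0.24 to 0.15) that turned to 0.09 in TPM. Grin2d was at 5.996, 6.42 and 6.86 FPKM in the control libraries and 4.59, 4.98 and 5.82 FPKM in the diabetic libraries. All its diabetic values lay below all control values, and the mean was 0.798 times the control mean (log2 difference -0.30, SE 0.12, unadjusted p = 0.0443, limma adjusted p = 0.240). In TPM the log2 difference was -0.18 with an unadjusted p of 0.195, and after removal of the length trend it was -0.42. The unadjusted p was also above 0.05 without control 2, control 3, diabetic 1 or diabetic 2, up to 0.133 without diabetic 1. Grin2c was at 6.52, 5.65 and 10.3 FPKM in the control libraries and 5.52, 7.93 and 5.44 FPKM in the diabetic libraries. Control 3 was the highest for Grin2c, and without it the log2 difference of -0.21 turned to 0.03. Grin2a was at 0.772, 0.563 and 0.513 FPKM in the control libraries and 1.28, 1.012 and 0.609 FPKM in the diabetic libraries. Diabetic 3 lay within the control range, and the log2 difference was 0.38 (SE 0.26). Grin3a, named after its values were seen and too low to be tested, was at 0.310, 0.257 and 0.170 FPKM in the control libraries and 0.816, 0.514 and 0.329 FPKM in the diabetic libraries. It rests on 7 to 17 fragments in the control and 20 to 50 in the diabetic libraries, without overlap. Grin3b had -0.10, which turned to 0.03 in TPM, 0.04 without control 3 and 0.02 without diabetic 1, and Grin2b was not tested at 0.204 to 0.332 FPKM. Ganglion markers had a median log2 difference of -0.06 with 3 of 10 above 0, and summed to 404.5 to 551.4 FPKM in the control and 374.2 to 467.7 FPKM in the diabetic libraries. Their part in the NMDA values was not tested.

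Delta receptors do not open to glutamate in the usual way and act as synapse organisers. Grid1 was at 1.41, 2.43 and 2.35 FPKM in the control libraries and 2.84, 2.21 and 2.15 FPKM in the diabetic libraries, with overlap. Its log2 difference of 0.20 (SE 0.22) turned to -0.0033 without control 1. The delphilin gene was too low to be tested at 0.221, 0.216 and 0.407 FPKM against 0.594, 0.667 and 0.337 FPKM.

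Metabotropic glutamate receptor genes were of low to moderate level, and 3 of 5 tested had a log2 difference above 0, beside 50.1% of all genes. Grm7, a presynaptic receptor of low affinity, was at 5.64, 5.48 and 5.41 FPKM in the control libraries and 5.85, 6.97 and 5.62 FPKM in the diabetic libraries, with overlap (log2 difference 0.14, SE 0.12). Grm5, coupled to phospholipase C, was at 0.959, 0.901 and 1.12 FPKM in the control libraries and 1.23, 1.63 and 1.37 FPKM in the diabetic libraries. Its groups did not overlap, and the difference did not pass (log2 difference 0.35, SE 0.19, unadjusted p = 0.102, limma adjusted p = 0.345). Grm2, a presynaptic receptor known from starburst amacrine cells, was at 2.20, 4.59 and 4.28 FPKM in the control libraries and 3.82, 5.19 and 3.89 FPKM in the diabetic libraries, with the lowest value in control 1. Without that library its log2 difference of 0.24 turned to -0.05 and the class median of 0.14 to -0.0033. Grm8 had -0.04, which turned to 0.09 in TPM, 0.09 without control 2 and 0.07 without diabetic 3, and Grm3 was not tested.

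The differences were larger among receptor genes of low level and short length. The 5 genes with a mean of 0.5 to 1 FPKM had a median log2 difference of 0.38, where all genes of that level had 0.06, and apart from Gabrg3 the other 4 had 0.32. The 4 genes of 1 to 2 FPKM had 0.29 beside 0.09, and the 10 genes of 2 to 5 FPKM had 0.21 beside 0.08. From 5 to 10 FPKM the medians were -0.0068 and 0.06, from 10 to 30 FPKM -0.02 and -0.02, and for the 3 genes from 30 FPKM up 0.09 and -0.12. By length, the 8 receptor genes of 1180 to 2100 nt had a median of 0.40, where all genes of that length had -0.08, the 13 genes from there to 3430.5 nt had 0.16 beside 0.0026, and the 20 genes of at least 3430.5 nt had 0.04, where all genes had 0.11. So the order by length ran opposite to that of the whole table. The 8 genes of 1180 to 2100 nt include Gabrg3, at 0.80, which had to differ. Apart from it the middle value of these genes is that of Glra4, 0.27. The correlations that follow include Gabrg3 too. Across the 41 genes the log2 difference had a Pearson r of -0.45 (Spearman rho -0.44) with the log level, and an r of -0.42 (rho -0.39) with gene length. Across all 16363 genes these were -0.19 (-0.23) and 0.11 (0.25). These are descriptions across genes measured in the same 6 libraries, and genes are not independent replicates. The 10 genes too low for the test include 8 with a higher mean in the diabetic group, the delphilin gene among them. The share of all genes below that level was not taken, and at 0.5 to 1 FPKM 58.2% of all genes were above 0. Of these 10, only Grin3a had groups without overlap. Such genes rest on few fragments, 1 to 12 per library for Gabrq, so the count is a description.

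**Figure D4:**
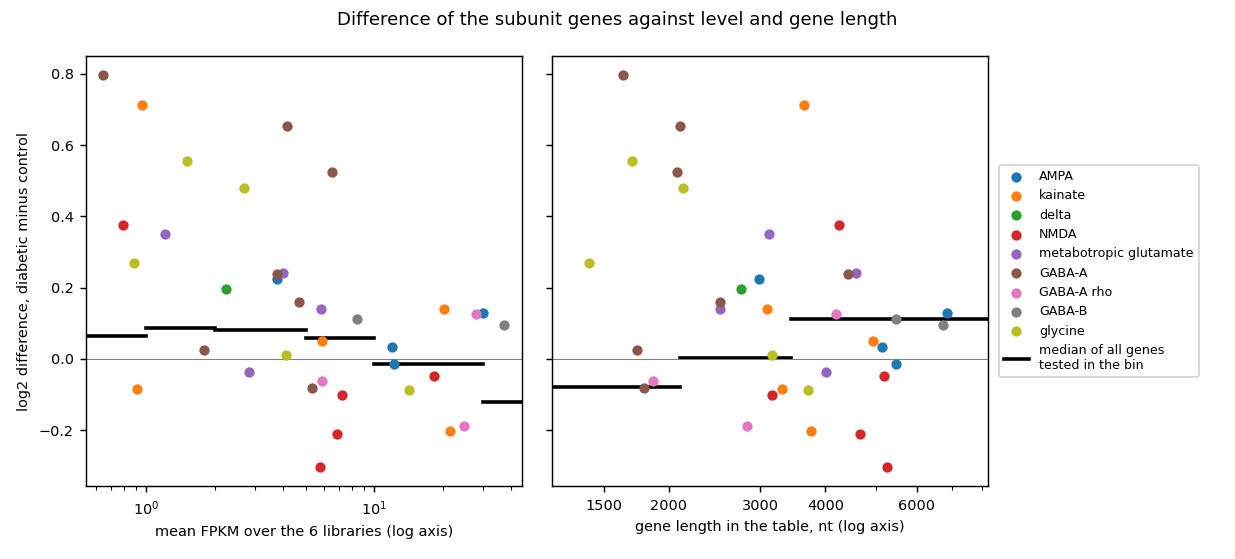
Log2 difference, diabetic minus control, of 36 of the 41 genes tested against mean FPKM (left, log axis) and gene length in nt (right, log axis), coloured by receptor class. Black bars give the median of all genes tested in each bin, which is 0.11 for the longest genes, where the receptor genes have a median of 0.04.

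Other genes of these synapses, taken from 4 lists, were also without a call. Their counts stand beside 50.1% of all genes above 0, and 9.15% higher and 10.7% lower at an unadjusted limma p below 0.05. Of 11 auxiliary subunits of glutamate receptors tested, 6 had a log2 difference above 0 (median 0.04), and 3 had an unadjusted limma p below 0.05 as higher and 0 as lower. Among them Cacng2, stargazin, which traffics AMPA receptors, was at 4.41, 4.69 and 4.23 FPKM in the control libraries and 6.07, 5.70 and 5.22 FPKM in the diabetic libraries (log2 difference 0.32, limma adjusted p = 0.197). Shisa6, which holds AMPA receptors at synapses, had 0.60. Of 18 scaffold genes of excitatory synapses, 15 were above 0 (median 0.14), 2 had an unadjusted p below 0.05 as higher and 1 as lower. Dlg1, coding for SAP97, was at 35.2, 26.7 and 30.5 FPKM in the control libraries and 44.7, 40.8 and 48.9 FPKM in the diabetic libraries (log2 difference 0.54, limma adjusted p = 0.130), and Dlg2, coding for PSD-93, had 0.53. The groups did not overlap for Dlg1 and Dlg2. The lower gene was Dlg4, at 254, 277 and 321 FPKM in the control libraries and 229, 235 and 236 FPKM in the diabetic libraries. It too was without overlap (log2 difference -0.28, limma adjusted p = 0.200). Of the 18 genes, 3 lay higher without overlap (beside 12.7% of all genes) and 2 lower (beside 13.6%).

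Of 10 scaffold genes of inhibitory synapses, 8 were above 0 (median 0.09, beside 50.1% of all genes above 0), 2 had an unadjusted limma p below 0.05 as higher (beside 9.15%) and 1 as lower (beside 10.7%). The lower one was Gabarap, whose product binds GABA-A receptors and also serves autophagy, at 135, 138 and 122 FPKM in the control libraries and 102, 96.03 and 97.7 FPKM in the diabetic libraries. All its diabetic values lay below the control values (log2 difference -0.41, limma adjusted p = 0.127). Nlgn3, a neuroligin, had 0.29. Of 17 genes for synthesis and transport of the transmitters, 10 were above 0 (median 0.05), with 2 at an unadjusted p below 0.05 as higher and 2 as lower, beside the same shares of all genes. Slc6a9, the glycine transporter GlyT1 of amacrine cells, was at 83.4, 74.0 and 82.5 FPKM in the control libraries and 97.9, 89.7 and 96.1 FPKM in the diabetic libraries (log2 difference 0.24). Slc17a7, the vesicular glutamate transporter VGLUT1 of photoreceptors and bipolar cells, was at 715, 710.1 and 771 FPKM in the control libraries and 552, 584 and 659.5 FPKM in the diabetic libraries (log2 difference -0.29). Slc17a7 shared its lower diabetic values with the rod markers given above.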

How the data were processed

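Per the labels' protocols, poly-A RNA gave paired reads, and no step that marks strand is mentioned. The submitters' processing notes name HISAT2 2.0.5 for alignment. Per the file headers, the deposited table holds FPKM with gene lengths and biotypes. Its counter, build and annotation were not given in the sources used here. FPKM times gene length came to a whole number of fragments, within 0.05, for 100% of values. Low genes rest on few fragments, and floors cover counting error only. Values were used without rescaling. The filter was a mean of 0.5 FPKM. The test on log2(FPKM + 0.5) used limma 3.58.1 (R 4.3.3), with group as the only term, an intensity trend, a two-sided moderated test and Benjamini-Hochberg adjustment at 0.05. The p-values measure the spread between these libraries. The functions were tested on simulated data. Every pair of libraries differed by more than sampling noise (chi-square over its degrees of freedom at least 10.04).

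The genes and lists were chosen with earlier results of these data known. Values per library are given for any gene past the threshold, the most abundant and up to 3 genes of smallest unadjusted p in each class, a fixed set of receptor genes, and 2 genes of smallest p per context list. Other genes were named after their values were seen. Some receptor genes that this takes are not reported here or drawn, and they stay in all counts, sums and medians. Of the 51 genes, 9 overlap another gene of at least 1 FPKM and can share reads with it. Sequences are RefSeq's. Alternatives were other pseudocounts, filters, scalings and limma settings, voom, a replicate block and the removal of single libraries. Shares under TPM and without each library, and counts apart from Gabrg3, were added after seeing the data.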

Additional observations from a re-analysis of the deposited data

How the results depend on the processing

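None of the receptor genes passed the adjusted threshold under any of the 19 alternatives run. Over all genes the count of calls was 0, with 2 under voom and 0 to 4 without each library in turn. Removing diabetic 1 gave 4, and removing control 2 or diabetic 2 gave 1 each. Receptor genes higher at an unadjusted p below 0.05 numbered 6, and 2 to 6 without each library (4.88 to 14.6%, beside 5.67 to 11.5% of all genes). The lower count of 2 became 0 in TPM, 1 with no filter on low values, 1 with no intensity trend, 1 with quantile normalization, 1 with a replicate block, 1 with voom, and 0 to 2 without each library. Under these settings 4.23 to 13% of all genes were lower. The median of all receptor genes, 0.13, was 0.26 in TPM, 0.044 after removal of the length trend, 0.18 with voom and 0.075 to 0.15 without each library. In TPM the class medians were 0.22 (AMPA), 0.18 (kainate), 0.28 (metabotropic glutamate), 0.35 (GABA-A), 0.067 (rho), 0.24 (GABA-B) and 0.44 (glycine, 0.45 with voom). With the length trend removed they were -0.062 for AMPA and -0.044 for GABA-B. Without each library they spanned 0.021 to 0.12 (AMPA), -0.048 to 0.10 (kainate), -0.0033 to 0.20 (metabotropic glutamate), -0.23 to 0.029 (NMDA), 0.13 to 0.29 (GABA-A), -0.10 to -0.0014 (rho), 0.061 to 0.13 (GABA-B) and 0.11 to 0.38 (glycine). TPM divides each library by its FPKM sum, which shifts all genes, and the cause of the other changes was not tested.

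Log2 differences of the single genes reported here that changed sign were small where they did so. With the length trend removed they were -0.072 for Gabbr1, -0.015 for Gabbr2, -0.042 for Gria2, -0.081 for Gria3, -0.029 for Glra2 and -0.060 for Grik2. In TPM they were 0.067 for Gabrr3, 0.045 for Glrb, 0.12 for Gria4, 0.088 for Grin1, 0.046 for Gabrd, 0.0055 for Grik4, 0.028 for Grin3b and 0.088 for Grm8, with voom 0.028 for Gria4, and with quantile normalization -0.043 for Gabrg1, -0.069 for Glra2 and -0.010 for Grik2. Without each library in turn the range ran for Gria3 from -0.034 to 0.084 (sign changed without diabetic 2), Gria4 from -0.090 to 0.055 (control 1 or diabetic 3), Grid1 from -0.0033 to 0.31 (control 1), Grin2c from -0.38 to 0.029 (control 3), Grm2 from -0.049 to 0.41 (control 1), Gabra3 from -0.043 to 0.28 (diabetic 1), Gabrd from -0.18 to 0.012 (control 1), Gabrg1 from -0.054 to 0.15 (control 1, diabetic 1 or diabetic 3), Glra2 from -0.14 to 0.11 (control 3 or diabetic 1), Grik2 from -0.057 to 0.12 (diabetic 2), Grik4 from -0.21 to 0.013 (control 2), Grin3b from -0.27 to 0.044 (control 3 or diabetic 1) and Grm8 from -0.19 to 0.086 (control 2 or diabetic 3).

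Same-numbered control and diabetic libraries had correlations of deviations of -0.0541, -0.0756 and 0.000607. Those of the other pairs ran from -0.0353 to 0.0922, the highest for control 2 with diabetic 1. So same-numbered libraries did not deviate together more than others did. With deviations from the mean of only 3 libraries per group, this cannot exclude a pairing or a shared batch. The replicate block gave 0 calls over all genes and a median of 0.13. At an unadjusted limma p below 0.05 it had 5 receptor genes higher (12.2%, beside 7.9% of all genes). It had 1 lower (2.44%, beside 9.15%). Depth limited the genes under 0.5 FPKM, where a gene could rest on a few fragments.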
